A study of Mus musculus with 4 samples.

Results

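Genes of cholesterol and fatty acid synthesis were followed in mouse adenoma organoids, grown from tumour epithelium in a 3D culture, on 4 Affymetrix arrays. The genes were taken from a list of 31 symbols, of which 27 were analysed, each through its brightest probe set over the 4 arrays, out of 17097 genes named in all. Pmvk, Acat2, Srebf1 and Scd2 were not analysed here. All 27 passed the filter on dim genes, a mean of at least 4.45 log2 units, and were among the 11874 genes tested. The first group had 2 arrays labelled Gata6 null/Apc null, from organoids of genotype VillinCreERT2Gata6fl/flApcfl/fl. The second had 2 arrays labelled Apc null, from organoids of genotype VillinCreERT2Gata6+/+Apcfl/fl. Both groups therefore carried floxed Apc, the Wnt pathway suppressor gene, and a Cre recombinase driven by the Villin promoter of intestinal epithelium. The groups differed by floxed Gata6, which encodes a zinc finger transcription factor of endoderm. Both were on a C57BL/6 background and were cultured for 7 days with EGF at 50 ng/mL. The labels carry a batch letter, and each group was represented once under A and once under B. The labels give no ages, and the design text calls the replicates biological and does not give the number of mice. The p-values may therefore measure only the spread between these cultures. Values are log2 expression after RMA, and differences are Gata6 null/Apc null minus Apc null, by label.

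Cells make cholesterol from acetyl-CoA through mevalonate, isoprenoid diphosphates and squalene, and the ring formed from squalene is then trimmed to cholesterol. Fatty acids start from the same cytosolic acetyl-CoA, which is carboxylated and then extended with NADPH. Transcription of both routes is driven by the SREBP factors, which are held in the endoplasmic reticulum by INSIG proteins when sterol is plentiful and escorted to the Golgi by SCAP when it is scarce. SREBPs act at sterol regulatory elements together with NF-Y, which binds CCAAT, and Sp1. Intestinal crypt and tumour cells use the products for membranes and for the lipid anchors of signalling proteins.

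The start-site sequences of 4 genes whose lowest value was on the batch A array labelled Gata6 null/Apc null are shown. None of the 4 passed between the genotypes. All 4 carry CCAAT, and Hmgcs1 alone of them carries the form of the sterol element searched for. The sequences come from RefSeq on the GRCm38.p6 build and span 300 bases around the annotated start, most of them before it. The build of the array values is not given in the sources used here. Capitals mark TCACNCCAC, a form of the sterol element, and CCAAT, each searched on both strands with overlapping matches counted separately. Hmgcs1 lies at chr13:119690101-119690400 on the plus strand, Lss at chr10:76531355-76531654 on the plus strand, Acss2 at chr2:155517793-155518092 on the plus strand and Mvd at chr8:122443373-122443672 on the minus strand.
Hmgcs1: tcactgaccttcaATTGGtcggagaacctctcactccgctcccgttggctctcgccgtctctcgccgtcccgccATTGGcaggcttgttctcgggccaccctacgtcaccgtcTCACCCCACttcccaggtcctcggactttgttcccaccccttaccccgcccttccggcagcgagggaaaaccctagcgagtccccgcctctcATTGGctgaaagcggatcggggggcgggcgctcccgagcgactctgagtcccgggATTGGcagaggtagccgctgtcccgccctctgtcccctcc
Lss: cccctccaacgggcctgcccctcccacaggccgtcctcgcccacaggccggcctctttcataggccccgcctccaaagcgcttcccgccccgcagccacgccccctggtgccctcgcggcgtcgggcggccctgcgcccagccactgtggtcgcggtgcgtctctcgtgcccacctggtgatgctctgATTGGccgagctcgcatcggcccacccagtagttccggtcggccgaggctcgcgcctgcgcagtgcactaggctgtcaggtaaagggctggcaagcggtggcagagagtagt
Acss2: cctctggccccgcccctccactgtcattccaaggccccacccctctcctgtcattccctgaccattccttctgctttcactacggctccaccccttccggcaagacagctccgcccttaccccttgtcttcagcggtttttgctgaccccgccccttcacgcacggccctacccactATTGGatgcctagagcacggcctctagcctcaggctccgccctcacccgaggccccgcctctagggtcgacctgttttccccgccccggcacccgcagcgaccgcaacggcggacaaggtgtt
Mvd: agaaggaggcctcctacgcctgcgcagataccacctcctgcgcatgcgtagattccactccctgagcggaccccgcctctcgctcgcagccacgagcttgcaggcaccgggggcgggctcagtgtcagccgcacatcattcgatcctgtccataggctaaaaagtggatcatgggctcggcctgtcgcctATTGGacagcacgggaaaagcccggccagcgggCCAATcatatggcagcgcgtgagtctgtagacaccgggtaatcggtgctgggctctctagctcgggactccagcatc

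The Hmgcs1 window held the sterol element TCACCCCAC at -137 to -129, counted from the start site, and 4 CCAAT boxes, all of them on the minus strand. Lss and Acss2 each held 1 CCAAT box, at -62 to -58 and at -73 to -69, and Mvd held 2, at -60 to -56 and at -27 to -23. RefSeq windows were found for 25 of the 31 listed genes, 32 windows in all, because some genes have several starts. CCAAT was present in 22 of the 32 (68.8%), against 37.4% of all 32851 windows, which include non-coding genes. The Sp1 box GGGCGG was in 24 (75%), against 35.7% of all windows, and the E-box CACGTG in 6 (18.8%), against 7.15%. TCACNCCAC was in 1 window (3.12%), that of Hmgcs1, against 1.24% of all. These matches are letters in a window and not measured sites.

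The targeted gene did not follow the labels. The Gata6 probe set read 9.37 and 9.40 on the arrays labelled Gata6 null/Apc null (batch A first, as in every pair within a genotype), against 8.89 and 8.61 on the Apc null arrays. The difference of 0.64 (SE 0.19) had a limma adjusted p of 0.418, or 0.0392 with the batch as a block, and Apc differed by -0.10. The position of that probe set relative to the deleted part is not known here, so it does not check the labels, and every direction below rests on the labels alone. Array medians lay between 4.91 and 5.04 log2 units, and arrays correlated at 0.963 to 0.979 across probe sets. The epithelial origin in the labels matched the markers. Epcam, Krt8, Krt18 and Krt19 read 10.85 or more on every array, and the 6 fibroblast markers read 3.34 to 5.04. The hindgut factor gene Cdx2 read 7.29 and 8.11 on the arrays labelled Gata6 null/Apc null, against 9.13 and 9.41 on the Apc null arrays. Its difference of -1.57 had a limma adjusted p of 0.228, or 0.00545 with the batch as a block. Of the 8 epithelial markers, 6 read lower on the arrays labelled Gata6 null/Apc null in both batches (36.3% of all genes). The summed log2 level of the 8 was 83.0 and 83.0 there, against 86.3 and 85.3 on the Apc null arrays. Cdx2 had the widest gap within that sum, -1.84 for batch A and -1.30 for batch B, while the median difference of the 8 was -0.22. The part of the epithelial markers in the differences below was not tested. Adipoq and Lep, markers of fat cells, read 3.37 to 3.95, under the filter level.

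No gene of cholesterol or fatty acid synthesis passed an adjusted p of 0.05 between the genotypes in limma, and most of them read slightly lower on the arrays labelled Gata6 null/Apc null. Across all genes tested, 0.648% passed, 0.522% higher and 0.126% lower. With the batch as a block, 0 of the 27 passed either, where 6.88% of all genes did, 3.91% higher and 2.97% lower. At an unadjusted limma p under 0.05 there was 1 of the 27, against 7.97% of all genes, and 8 of the 27 with the block, against 19.9%. The difference was below 0 in both batches for 19 of the 27, which was so for 36.3% of all genes, and above 0 in both for 3, against 27.1%. Both arrays labelled Gata6 null/Apc null were below both Apc null arrays for 10 of the 27 (17.3% of all genes) and above both for 0 (14.7%). The median difference was -0.22 over the 27 (-0.25 for batch A, -0.15 for batch B). Over all genes it was -0.03 (-0.05 for batch A, -0.01 for batch B). With 2 arrays a group, differences of this size were within the error of most single genes, as the plot of differences with their intervals shows. In RNA from whole cultures, fewer cells of a type and less RNA per cell cannot be told apart.

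**Figure D1:**
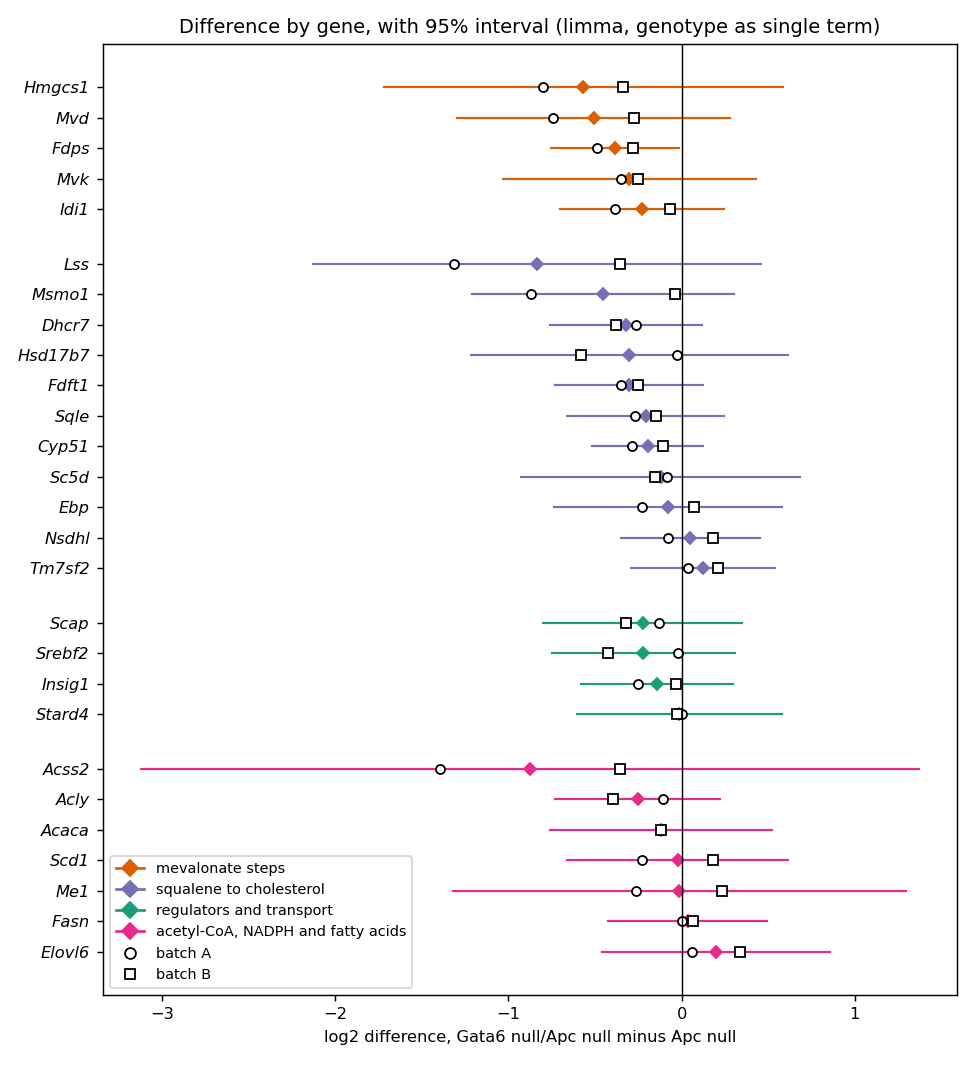
Log2 difference (arrays labelled Gata6 null/Apc null minus Apc null, horizontal axis) for each of the 27 genes, grouped by role; diamonds are the limma estimate with its 95% interval, open circles the difference in batch A and open squares that in batch B. The 5 mevalonate genes lie left of 0 in both batches, and the interval of Fdps alone ends below 0.

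The 5 mevalonate-step genes analysed read lower on the arrays labelled Gata6 null/Apc null in both batches (36.3% of all genes). For all 5 the gap was wider in batch A, where 2401 of the 11874 genes tested were lower in both batches and wider in A. The median difference of the 5 was -0.38 (-0.49 for batch A, -0.27 for batch B). Fdps, whose enzyme makes farnesyl diphosphate for sterols and for protein prenylation, read 10.06 and 10.02 on the arrays labelled Gata6 null/Apc null, against 10.55 and 10.30 on the Apc null arrays. The groups did not overlap. Its difference of -0.38 (SE 0.14) had the smallest adjusted p of the 27 in limma, 0.593, and 0.0690 with the block, and its 95% interval ran from -0.75 to -0.02. Hmgcs1, which joins acetyl units into HMG-CoA, read 4.70 and 5.80 in Gata6 null/Apc null against 5.50 and 6.13 on the Apc null arrays. The batch B array labelled Gata6 null/Apc null lay between the Apc null arrays, so the groups overlapped. Its difference was -0.57 (SE 0.44, limma adjusted p = 1.00, and 0.174 with the block), and its probe set was dim, close to the filter level. With 1 array left out, which unbalances the batches, it ran from -1.11 to -0.022, and it was smallest without the batch A array labelled Gata6 null/Apc null. Mvd, which decarboxylates mevalonate diphosphate, read 8.38 and 9.12 in Gata6 null/Apc null against 9.12 and 9.39 on the Apc null arrays. Here the batch B array labelled Gata6 null/Apc null almost met the batch A array of the controls. Its difference was -0.51 (SE 0.30, limma adjusted p = 0.952, and 0.115 with the block), and -0.14 without the batch A array labelled Gata6 null/Apc null. Mvk, the mevalonate kinase gene, and Idi1, which isomerises isopentenyl diphosphate, differed by -0.30 and -0.23.

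From squalene to cholesterol, 8 of the 11 genes analysed read lower on the arrays labelled Gata6 null/Apc null in both batches (36.3% of all genes), 1 read higher in both (27.1%), and 5 had groups that did not overlap, all 5 lower (17.3% of all genes). Lss, which closes squalene epoxide into the first sterol ring, had the widest gap. It read 5.58 and 6.91 on the arrays labelled Gata6 null/Apc null, against 6.89 and 7.26 on the Apc null arrays. The batch A array labelled Gata6 null/Apc null stood far below the other 3, and the groups just overlapped. The difference was -1.32 for batch A, -0.35 for batch B and -0.84 over both (SE 0.50, limma adjusted p = 0.951, and 0.146 with the block). Without that low array it was -0.17, which again unbalances the batches. Msmo1, a C4 sterol demethylation oxidase, showed the same single low array, with 7.29 and 7.81 in Gata6 null/Apc null against 8.16 and 7.85 in Apc null. Its difference was -0.87 for batch A but -0.04 for batch B (limma adjusted p = 0.980), and -0.19 over both without the low array.

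Other genes of these steps had smaller gaps through their brightest probe sets. Dhcr7, the last reductase of the pathway, read 9.07 and 9.12 on the arrays labelled Gata6 null/Apc null, against 9.33 and 9.50 on the Apc null arrays. Fdft1, the squalene synthase gene, read 9.14 and 9.30 in Gata6 null/Apc null against 9.49 and 9.56 in Apc null. Cyp51, the lanosterol demethylase gene, read 10.29 and 10.48 in Gata6 null/Apc null against 10.58 on both Apc null arrays. None of these groups overlapped, with differences of -0.32 for Dhcr7, -0.30 for Fdft1 and -0.20 for Cyp51, and none passed (limma adjusted p of 0.856 to 0.976). The dimmer Cyp51 probe sets differed by -0.41 and -0.35. Sqle, the squalene epoxidase gene and a rate-limiting step, differed by -0.21, with 9.25 and 9.15 in Gata6 null/Apc null against 9.52 and 9.30 in Apc null. Hsd17b7, a sterol ketone reductase gene, differed by -0.03 for batch A but by -0.58 for batch B. Tm7sf2, a sterol C14 reductase gene, went the other way. It read 9.59 and 9.81 in Gata6 null/Apc null against 9.55 and 9.60 in Apc null, a difference of 0.12 (95% interval -0.30 to 0.54). Nsdhl, which removes a C4 carboxyl group, read 9.61 and 9.73 in Gata6 null/Apc null against 9.69 and 9.54 in Apc null and differed by 0.05 (95% interval -0.35 to 0.45). Ebp and Sc5d, an isomerase and a desaturase gene of the late steps, differed by -0.08 and -0.12.

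**Figure D2:**
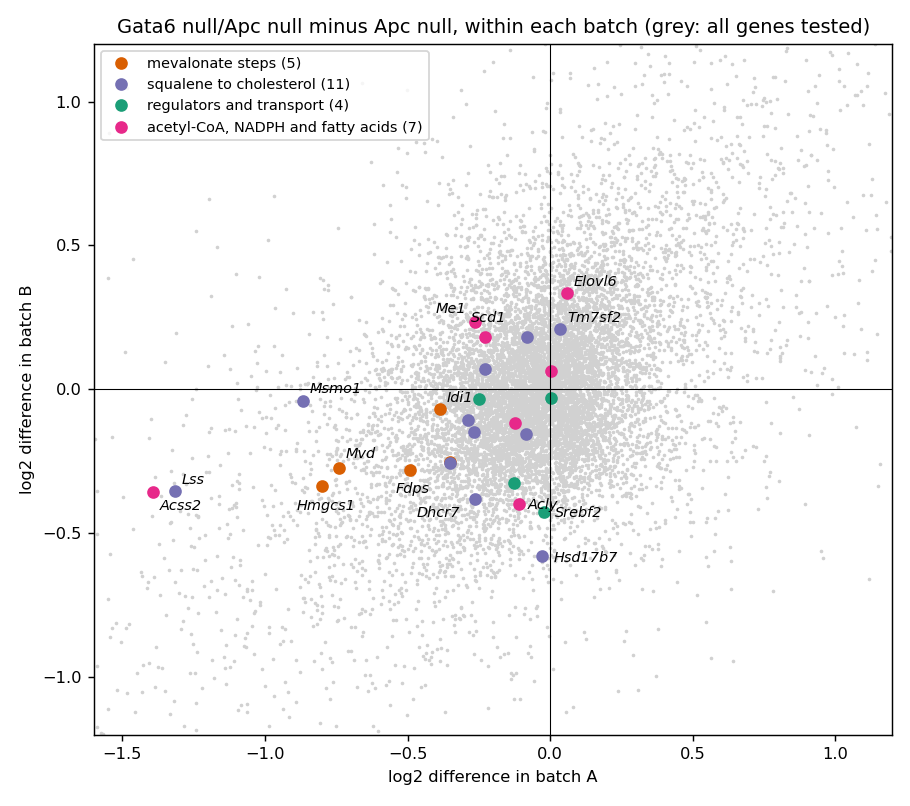
Log2 difference (arrays labelled Gata6 null/Apc null minus Apc null) for batch A (horizontal axis) and for batch B (vertical axis); coloured points are the 27 genes by role and grey points all genes tested, with 615 genes outside the axes. Of the 27, Acss2 and Lss lie farthest left at -1.39 and -1.32 in batch A, while their batch B differences are -0.36 and -0.35.

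Among the regulators, Srebf2, the SREBP gene of the sterol branch, read 8.82 and 8.71 on the arrays labelled Gata6 null/Apc null, against 8.84 and 9.14 on the Apc null arrays. The 2 batch A arrays were nearly equal, so its difference of -0.22 came from batch B (-0.43). Scap, the escort of SREBPs, read 8.15 and 7.90 in Gata6 null/Apc null against 8.28 and 8.22 in Apc null and differed by -0.23. Neither passed, at a limma adjusted p of 1.00 for each and 0.475 for each with the block. Insig1, which retains SREBPs and is itself an SREBP target, read 9.89 and 10.23 in Gata6 null/Apc null against 10.14 and 10.27 in Apc null, a difference of -0.14 (95% interval -0.58 to 0.30). Stard4, a carrier of sterol between membranes, was nearly equal between genotypes within each batch, with 9.82 and 10.22 in Gata6 null/Apc null against 9.81 and 10.25 in Apc null. Its difference was -0.01, with a 95% interval of -0.61 to 0.58, or -0.22 to 0.19 with the block.

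Of the 7 genes of acetyl-CoA supply, NADPH supply and fatty acid synthesis analysed, 3 read lower in both batches (36.3% of all genes), 2 higher in both (27.1%) and 2 opposite ways, which is near the shares over all genes. For all 7 the groups overlapped, where 17.3% of all genes had lower and 14.7% higher groups without overlap. The median difference was -0.02. Fasn, the fatty acid synthase gene, read 9.42 and 9.27 on the arrays labelled Gata6 null/Apc null, against 9.41 and 9.21 on the Apc null arrays. Its difference was 0.03, with a 95% interval of -0.42 to 0.49, or -0.22 to 0.29 with the block. Elovl6, which extends palmitate, had the largest positive difference of the 27. It read 9.16 and 8.92 in Gata6 null/Apc null against 9.11 and 8.59 in Apc null, a difference of 0.20 (SE 0.25, limma adjusted p = 1.00). Scd1, the stearoyl-CoA desaturase gene, read 9.32 and 9.92 in Gata6 null/Apc null against 9.55 and 9.73 in Apc null and differed by -0.23 for batch A but by 0.18 for batch B. Acaca, the acetyl-CoA carboxylase gene, differed by -0.12 in each batch.

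The suppliers of acetyl-CoA and NADPH differed among themselves. Acss2, which makes acetyl-CoA from acetate, read 6.95 and 9.25 on the arrays labelled Gata6 null/Apc null, against 8.35 and 9.61 on the Apc null arrays. Within each batch the array labelled Gata6 null/Apc null was the lower one, with differences of -1.39 and -0.36, but the 2 batches were so far apart that the groups overlapped. Its difference was the most negative of the 27, -0.88 (SE 0.86, limma adjusted p = 1.00, and 0.109 with the block). Leaving out the batch A array labelled Gata6 null/Apc null turned it to 0.27, but leaves the batches unbalanced. A second Acss2 probe set read 5.26 and 8.05 in Gata6 null/Apc null against 7.26 and 8.50 in Apc null. Acly, which makes acetyl-CoA from citrate, read 10.47 and 10.04 in Gata6 null/Apc null against 10.58 and 10.44 in Apc null and differed by -0.25 (limma adjusted p = 1.00). Me1, the malic enzyme gene, read 8.06 and 9.31 in Gata6 null/Apc null against 8.32 and 9.07 in Apc null and differed by -0.26 for batch A but by 0.23 for batch B.

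**Figure D3:**
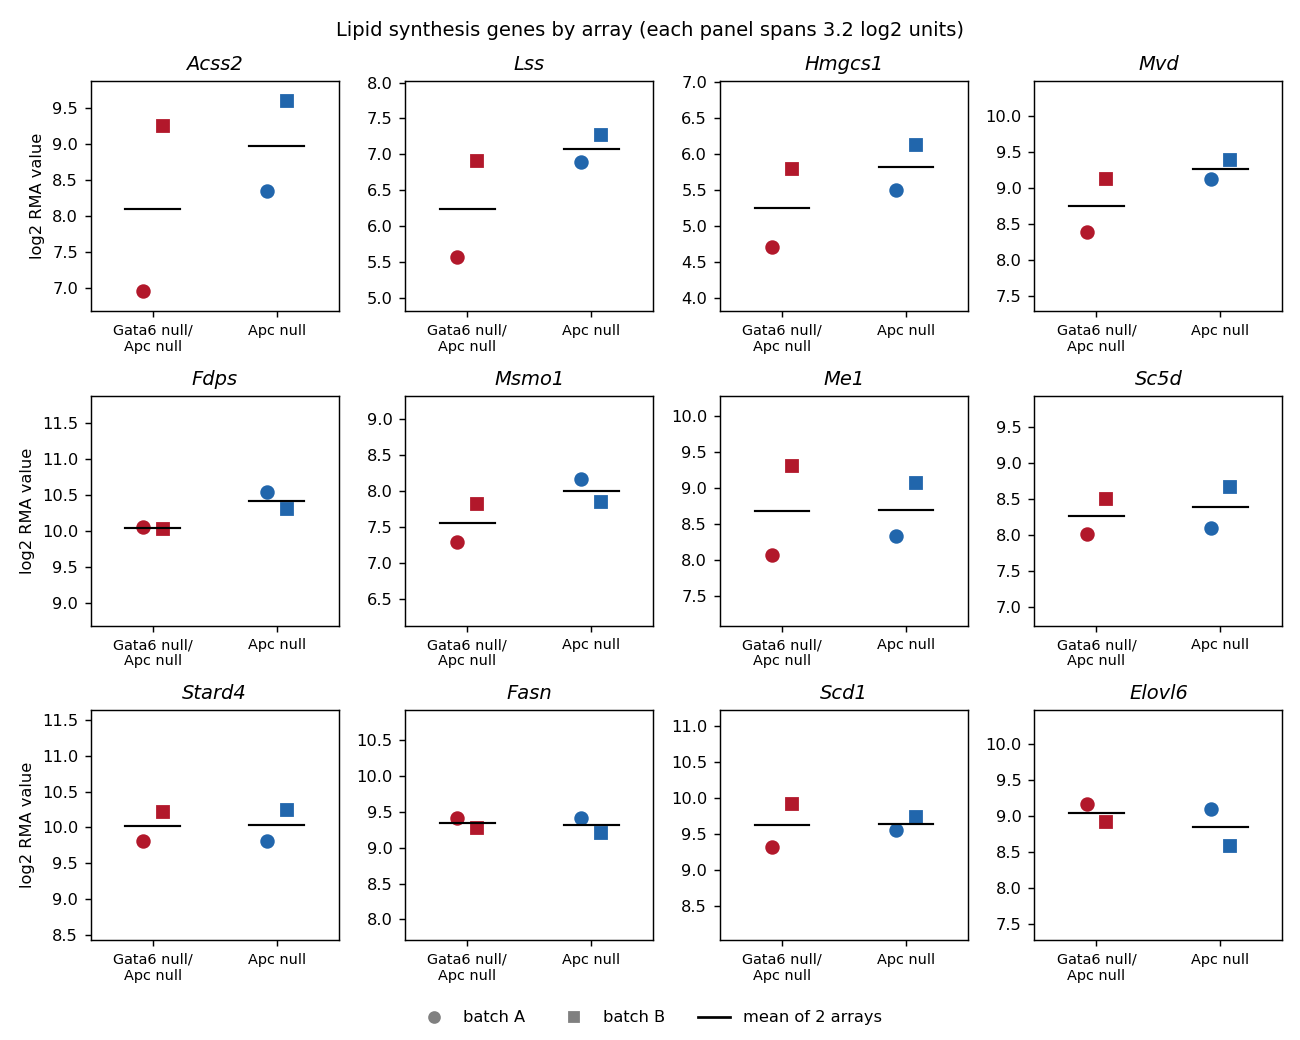
Log2 RMA value (vertical axis, 3.2 units in each panel) of 12 genes on each of the 4 arrays, with batch A as circles, batch B as squares and a line at the mean of each pair. The batch A array labelled Gata6 null/Apc null is the lowest for Acss2, Lss, Hmgcs1, Mvd, Msmo1, Me1, Sc5d and Scd1.

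The batch A array labelled Gata6 null/Apc null was the lowest of the 4 for 12 of the 27 genes (24.2% of all genes), and its batch B counterpart for 9 (31.7%). The lowest array was Apc null A for 2 (17.8%) and Apc null B for 4 (26.2%). The Apc null arrays were the highest for 10 in batch A (34.1% of all genes) and 11 in batch B (19.8%), and those labelled Gata6 null/Apc null for 2 in batch A (22%) and 4 in batch B (24.1%). For 16 of the 27 the batch difference was larger in size than the genotype difference, as it was for 61.7% of all genes.

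Between the batches, 5 of the 27 genes passed in the limma fit with genotype and batch, all 5 higher in batch B. Across all genes 16.6% passed, 7.53% higher and 9.12% lower in batch B. Acss2 rose 3.43-fold in batch B, with 9.25 and 9.61 on the batch B arrays (Gata6 null/Apc null, then Apc null), against 6.95 and 8.35 on the batch A arrays. The difference of 1.78 (SE 0.25) had an adjusted p of 0.0140. Me1 rose by 1.00 (SE 0.16, limma adjusted p = 0.0169), with 9.31 and 9.07 in batch B, against 8.06 and 8.32 in batch A. Hmgcs1 rose by 0.86 (limma adjusted p = 0.0367), with 5.80 and 6.13 in batch B, against 4.70 and 5.50 in batch A. Sc5d rose by 0.52 (limma adjusted p = 0.0469) and Stard4 by 0.42 (limma adjusted p = 0.0291). Lss differed by 0.85 and Mvd by 0.50 without passing (limma adjusted p = 0.0813 and 0.0681). Hsd17b7, Mvk, Ebp, Acaca and Elovl6 read lower in batch B, by differences of -0.53 to -0.38, and did not pass. The genes of these routes did not all move the same way between batches. In both genotypes 13 of the 27 were higher in B, as were 3625 of the 11874 genes tested. Another 11 were lower in B in both genotypes, as were 5091 of all genes tested. Both batch B arrays were above both batch A arrays for 9 of the 27 (21% of all genes) and below them for 7 (33.1%).

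These batch calls depended on the fit. Acss2 and Me1 were the 2 that passed without a trend in the moderation, 9 genes passed after a repeated quantile normalization, 7 higher and 2 lower, and 0 passed with batch as the single term. With the mean of all probe sets 5 passed, of which Acss2, Me1 and Hmgcs1 were shared, while Sc5d and Stard4 did not pass, Msmo1 rose and Acaca fell. With the filter at the 60th percentile Hmgcs1 was no longer called. Cell cycle genes moved with the batches too. Of 14 tested, 10 passed as lower in batch B (9.12% of all genes) and 0 as higher (7.53%), with a median difference of -0.62. Mcm2 read 7.98 and 8.52 in batch B, against 9.31 and 9.51 in batch A. Cd68, a lysosomal glycoprotein gene listed as an immune marker, read 7.23 and 7.57 in batch B, against 4.94 and 5.92 in batch A. The defining leukocyte genes Ptprc, Cd3e and Itgam read 3.07 to 3.71 on the 4 arrays, under the filter level. The summed log2 level of the 5 immune markers analysed was 21.9 and 22.5 in batch B, against 20.0 and 20.8 in batch A. That sum includes Cd68, which rose by 1.97, while the other immune marker tested differed by 0.07 between the batches. The part of cell cycle genes in the batch differences was not tested.

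**Figure D4:**
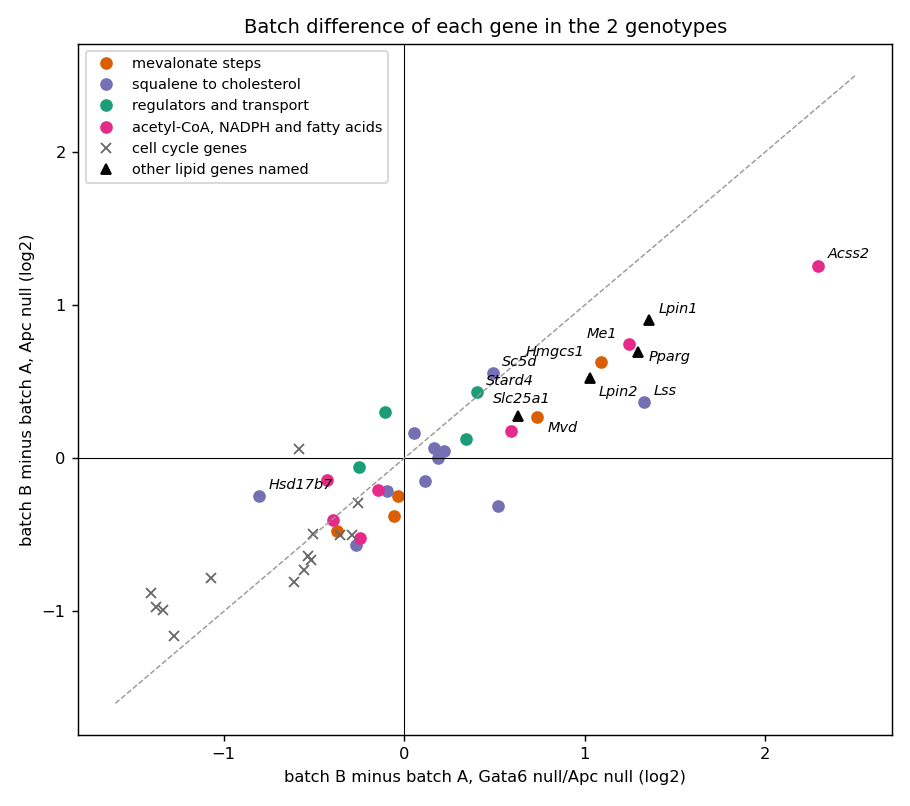
Batch B minus batch A on the log2 scale, for Gata6 null/Apc null (horizontal axis) and for Apc null arrays (vertical axis); coloured points are the 27 genes by role, crosses 14 cell cycle genes and triangles other lipid genes named in the text, and the dashed line marks equal differences. Acss2 lies at 2.30 and 1.26, and the cell cycle genes lie to the left of 0.

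Genes of sterol uptake, export and SREBP control included sterol exporters and LDL receptor regulators. Of 14 tested, 0 passed in limma without the block (0.648% of all genes), where Abcg1 had the smallest p. With the block 3 rose, against 3.91% of all genes. Abcg1, a sterol exporter induced by the oxysterol receptor LXR, read 5.69 and 5.93 on the arrays labelled Gata6 null/Apc null, against 4.51 and 4.43 on the Apc null arrays. Its difference of 1.34 (SE 0.18) had a limma adjusted p of 0.0751, or 0.00985 with the block. Mylip, an LXR-induced ubiquitin ligase that degrades the LDL receptor, read 6.60 and 5.92 in Gata6 null/Apc null against 5.35 and 5.14 in Apc null, a difference of 1.02 (limma adjusted p = 0.408, or 0.0389 with the block). Osbpl2, an oxysterol-binding protein gene, read 8.72 and 9.25 in Gata6 null/Apc null against 7.86 and 7.92 in Apc null, a difference of 1.10 (limma adjusted p = 0.272, or 0.0150 with the block). The Apc null values of Abcg1 were at the filter level, so the size of its difference depends on the array floor. The median of the 14 differences was 0.01.

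Genes of fatty acid elongation, desaturation and glyceride synthesis numbered 25 tested. In limma 0 passed without the block (0.648% of all genes). With it 1 rose and 2 fell, where 3.91% of all genes rose and 2.97% fell. Hacd2, a dehydratase of fatty acid elongation, read 11.18 and 10.77 on the arrays labelled Gata6 null/Apc null, against 10.21 and 9.88 on the Apc null arrays. It differed by 0.93 (limma adjusted p = 0.232, or 0.00215 with the block). Pgd, an NADPH-producing enzyme of the pentose phosphate route, read 10.91 and 10.87 in Gata6 null/Apc null against 11.26 and 11.32 in Apc null, a difference of -0.40 (limma adjusted p = 0.248, or 0.0233 with the block). Lpin1, a phosphatidate phosphatase gene, read 6.31 and 7.67 in Gata6 null/Apc null against 7.54 and 8.44 in Apc null. Like Acss2 and Lss, Lpin1 was lowest on the batch A array labelled Gata6 null/Apc null. Its gap narrowed less than theirs, from -1.23 for batch A to -0.78 for batch B. It differed by -1.01 (limma adjusted p = 0.913, or 0.0306 with the block) and, between the batches, by 1.13 (limma adjusted p = 0.0178). Lpin2 and the mitochondrial citrate carrier gene Slc25a1 also rose in batch B, by 0.78 and 0.45 (limma adjusted p = 0.0377 and 0.0364).

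Of 15 fatty acid oxidation and PPAR target genes tested, 0 passed in limma without the block (0.648% of all genes). With it 2 fell, where 2.97% of all genes fell. Ppard, a nuclear receptor for fatty acids, read 8.32 and 8.35 on the arrays labelled Gata6 null/Apc null, against 8.93 and 8.94 on the Apc null arrays (difference -0.60, limma adjusted p = 0.446, or 0.0429 with the block). Fabp2, an intestinal fatty acid binding protein gene, was close to the array floor. It read 4.27 and 3.96 in Gata6 null/Apc null against 5.07 and 4.71 in Apc null. The first 2 values were under the filter level, so Fabp2 passed the filter only through its Apc null values. Its difference was -0.78 (limma adjusted p = 0.307, or 0.0270 with the block). Pparg, a lipogenic nuclear receptor gene, read 7.52 and 8.82 in Gata6 null/Apc null against 8.53 and 9.22 in Apc null and rose by 0.99 in batch B (limma adjusted p = 0.0204). The isoprenoid branches, which make ubiquinone, dolichol and prenyl anchors, had 11 genes tested. In limma they had 0 calls without the block (0.648% of all genes) and 0 with it (6.88%). Their members with the smallest p were Nus1, of dolichol synthesis, and Rabggtb, of Rab prenylation, with differences of -0.27 and 0.18.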

How the data were processed

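Total RNA from 4 organoid cultures, 25 ng each, was amplified and hybridised to Affymetrix arrays, per the labels' protocols. The authors deposited log2 values for each probe set. RMA and affy are named in the submitters' processing notes, without versions. RMA includes quantile normalization, and the array medians of the deposited values lay between 4.91 and 5.04 log2 units. Whether array-wide shifts remained was not tested. Of 45141 probe sets, 104 were controls and 28898 had 1 gene in the platform annotation. Those of several genes (551) or none (15588) were left unnamed. Symbols were checked by Entrez identifier against RefSeq GRCm38.p6, and 0 changed.

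Each gene was represented by its brightest probe set, and dim genes, below the 40th percentile of probe sets, were left out. The genotype test was limma 3.58.1 (lmFit, then eBayes with a trend) under R 4.3.3. Genotype was its only term, and Benjamini-Hochberg adjustment ran over all 11874 genes, with two-sided p-values. All p-values are from limma. That fit has 2 residual degrees of freedom, and the fit with the batch letter as a block has 1. The block follows the batch label, and the batch differences of the 2 genotypes correlated at 0.675 across genes. Batch calls come from the blocked fit. The test was checked on simulated data. Per-array values were to be given for genes past the threshold and for the 3 largest increases and decreases. Per-array values of other genes of the list were chosen after their values were seen. Other pathway genes are those past the threshold in either genotype fit, or the 2 with the smallest p; those named for their batch difference alone, and Cdx2 and Cd68, were chosen after their values were seen. The genes and lists were chosen with earlier results of these data known, so they are counted and not tested as sets. Alternatives changed the block, trend, filter, probe set rule, scaling and arrays used. The number of arrays limits the precision.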

Additional observations from a re-analysis of the deposited data

How the results depend on the processing

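The number of the 27 genes called between genotypes stayed at 0 in limma under every alternative run, which were the replicate block, no trend in the moderation, a filter at the 60th percentile or none, the mean of all probe sets, no shared-sequence probe sets, a repeated quantile normalization and each array left out. Their median difference ran from -0.25 to -0.17 over these settings, against -0.22 as reported. The count over all genes was 77. It was 817 with the replicate block, and 33 to 130 when 1 array was left out: 130 when it was Gata6 null/Apc null A, 86 when Gata6 null/Apc null B, 33 when Apc null A and 48 when Apc null B. Between batches, 1977 genes passed, but 873 without a trend and 0 with batch as the single term. Of the 27, 5 passed between batches, but 2 without a trend, 9 after repeated quantile normalization (all-gene count not given here) and 0 with batch alone. The mean of all probe sets also gave 5, of which 3 were shared. The filter at the 60th percentile gave 4 of 26 tested, because it removed Hmgcs1 before testing. All-gene counts are not given here for either. The cause of the other changes was not tested, except that the single-term fit leaves genotype in the residual.

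Of the 27, 12 changed sign without passing when 1 array was left out, among them Acss2, the most negative of the 27. After repeated quantile normalization Stard4 differed by 0.0029 and Me1 by 0.013. With 1 array left out, which unbalances the batches, the lowest and highest differences were -0.40 and 0.16 for Sc5d, -0.31 and 0.029 for Insig1, -0.23 and 0.20 for Stard4, -0.068 and 0.14 for Fasn, -0.32 and 0.27 for Scd1, -2.02 and 0.27 for Acss2, -0.64 and 0.61 for Me1, -0.36 and 0.20 for Ebp, -0.32 and 0.080 for Acaca, -0.024 and 0.12 for Nsdhl, -0.064 and 0.46 for Elovl6 and -0.70 and 0.097 for Hsd17b7. Genes that kept their sign moved too, between -1.11 and -0.022 for Hmgcs1, -0.88 and -0.14 for Mvd and -0.71 and -0.19 for Msmo1, each smallest without Gata6 null/Apc null A, where Lss was -0.17.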

Other observations

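Several probe sets measured 15 of the 27 genes. Besides the chosen ones, 19 passed the filter, of which 17 shared the chosen one's sign between genotypes and 18 between batches. The exceptions between genotypes were a second probe set of Stard4 and one of Elovl6, and the exception between batches was that same Elovl6 probe set. Msmo1 disagreed in size between batches. Its chosen probe set differed by 0.11 between batch B and batch A, while its other probe set read 7.46 and 7.76 on the batch B arrays (Gata6 null/Apc null, then Apc null), against 5.80 and 6.04 on the batch A arrays, a difference of 1.69. For Me1 the other probe set differed by 1.88 between the batches, against 1.00 for the chosen one. Sizes also disagreed between genotypes. The chosen Sc5d probe set differed by -0.12, and its others by -0.04 and -0.41. For Acaca the other probe set differed by -0.31, against -0.12 for the chosen one. Another Stard4 probe set differed by -0.33 for batch A and 0.04 for batch B, where the chosen one was nearly equal. Which of these probe sets follows the whole transcript is not known here.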
